A study of Mesocricetus auratus with 21 samples.

Results

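The genes described here were the 198 of 22285 annotated genes of the golden hamster whose transcripts were most enriched in adult testis of Mov10l1-/- males over adult wild-type testis. Members were chosen from the 4 adult libraries alone. Counts were converted to CPM (a gene's count divided by the library total, times 1e+06), and each gene received a score, the log2 ratio of its lowest CPM in the adult knockout plus 1 to its highest CPM in the adult wild type plus 1. Among the 5497 genes with at least 20 CPM in both adult knockout libraries, the 200 highest scores were taken and 2 genes were then left out by name. What these genes did at 0, 9, 13 and 21 days post partum (dpp) was not used to choose them.

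The testis houses germ cells inside seminiferous tubules, where they are supported by Sertoli cells and surrounded by peritubular myoid cells, while steroid-producing Leydig cells, vessels, macrophages and fibroblasts lie between the tubules. From the start of meiosis, spermatocytes and later spermatids come to supply most of the RNA of the whole organ. MOV10L1 is an RNA helicase needed to make PIWI-interacting RNAs, the small RNAs that guard germ cells against transposons, and male mice that lack it lose germ cells at meiosis and are sterile.

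Whole-testis RNA depleted of ribosomal RNA was sequenced from males that were Mov10l1+/+ (WT) or homozygous for a CRISPR/Cas9 deletion within Mov10l1 (KO). All mutants descended from a single founder female, so they share 1 allele. The study holds 21 libraries, 2 for each genotype at 0, 9, 13 and 21 dpp and in adults, with a further WT library at 9 dpp. Adults were not matched for age, with WT males of 65 and 23 weeks and KO males of 63 and 53 weeks. Libraries of 0 and 9 dpp were read as single ends and the others as paired ends, so ages were tested against each other only within these pairs of ages.

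Library totals ran from 3550217 counts in replicate 2 of WT at 13 dpp to 77527451 counts in replicate 1 of WT at 9 dpp. The targeted gene, Mov10l1, was at 171.6 and 96.2 CPM in WT and 0.0784 and 0.126 CPM in KO at 21 dpp. It was still at 15.3 and 14.9 CPM in KO against 127 and 74.4 CPM in WT at 0 dpp. Both KO libraries of 9 dpp carry the label of the same animal, and both KO libraries of 0 dpp carry a code that neither WT library of that age has. The 2 WT libraries of 21 dpp stood apart from each other, with a summed level of 20 germ cell genes of 4299 and 1790 CPM. With 2 libraries in most groups, p-values measure only the spread between these libraries, part of which may be technical.

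A symbol could be given to 35 of the 198 members, 17.7%, and 163 are known here by their Ensembl identifier alone. The 30 of the 35 with the highest scores are named below. Symbols came from the study's own lists of changed genes, 24 of the 30 from the list at 9 dpp and 7 from the list of newborns, with 1 on both. The values of named members at 0 and 9 dpp are therefore not independent evidence of a change at those ages, while no such list was used for 13 and 21 dpp.

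In the adults, which chose the members, the score ran from 3.04 to 4.71 on the log2 scale with a median of 3.29. The lowest adult KO level of a member ranged from 20.3 to 2963 CPM with a median of 88.7 CPM, and its highest adult WT level from 0.139 to 253 CPM with a median of 6.90 CPM. The gene just inside the limit, ENSMAUG00000000451, had 110.2 and 111 CPM in KO and 8.39 and 12.5 CPM in WT, and the gene just outside, Pdyn, which encodes the precursor of dynorphin peptides, had 139 and 139 CPM in KO and 15.99 and 11.0 CPM in WT. A further 11 genes reached the score but not the 20 CPM minimum.

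The members were proposed as candidate somatic genes. Lists of cell type markers could test that name only in part, since only 14 of the genes on 6 somatic lists had an identifier here: 5 for Sertoli cells, 4 for peritubular myoid cells, 2 for endothelium and 1 each for Leydig cells, macrophages and fibroblasts. Of these 14, only Col1a1, which encodes a chain of type I collagen, was a member. None of the 20 germ cell genes, all of which had an identifier, was a member, but the choice of members left them no room. All but Tex15 were below the 20 CPM minimum in both adult KO libraries. Tex15 was lower in adult KO than in adult WT. The absence of these genes therefore does not test the name. For these reasons no cell type name is given to the members.

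Their share of all counts was lower at 21 dpp than at the earlier ages in every WT library, while the KO libraries of 21 dpp lay within or near the range of the earlier ones. In WT, members took 3.10% and 3.40% of the counts at 0 dpp, 2.89%, 2.76% and 2.704% at 9 dpp, 2.11% and 2.35% at 13 dpp, and 1.14% and 0.886% at 21 dpp. In KO the shares were 2.67% and 3.29% at 0 dpp, 2.73% and 2.83% at 9 dpp, 2.57% and 2.59% at 13 dpp, and 2.34% and 3.25% at 21 dpp. The genotypes overlapped at 0 and 9 dpp and were apart at 13 and 21 dpp. The adult shares that the choice rests on were 0.311% and 0.266% in WT and 3.803% and 4.13% in KO.

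**Figure D1:**
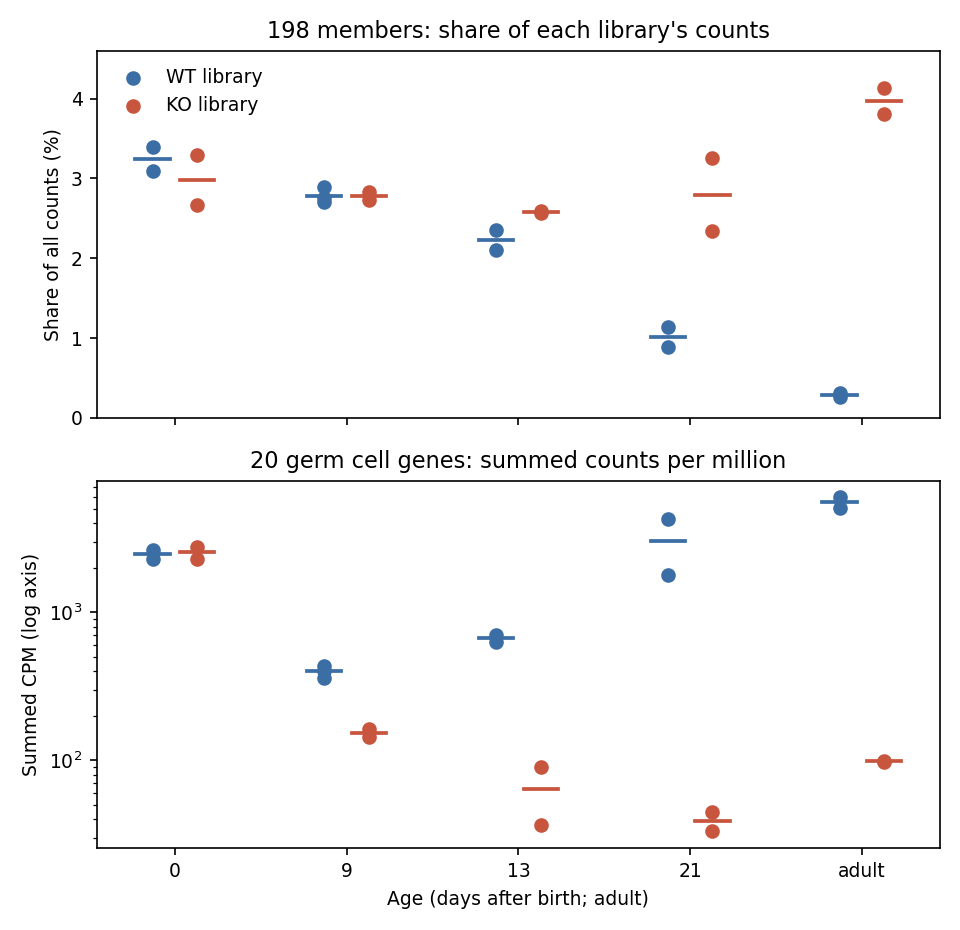
Share of all counts taken by the 198 members (top, percent, linear axis) and summed CPM of 20 germ cell genes (bottom, log axis) in each library by age, with points for WT (blue) and KO (red) libraries and bars for group means. The member share of WT drops to 1.14% and 0.886% at 21 dpp while the 2 KO libraries stay at 2.34% and 3.25%, and the germ cell genes of KO lie below those of WT from 9 dpp on; adult member shares chose the genes and test nothing.

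The germ cell genes, named from the study's lists of changed genes except for Tex101, had a different course. Their differences between genotypes at 0 and 9 dpp are not independent evidence, since those lists were made from the same data. Their summed level at 0 dpp was 2650 and 2300.2 CPM in WT and 2783 and 2301 CPM in KO. From 0 to 9 dpp that sum and the member share were both lower in WT, and only after 9 dpp did the WT values part, the sum to higher and the share to lower levels. Single genes weigh heavily in the share: the mean WT level of Col1a1 went from 4109 CPM at 0 dpp to 1016 CPM at 9 dpp. The median WT level over members was 52.6 CPM at 0 dpp and 51.8 CPM at 9 dpp. At 9 dpp the sum was 434, 402 and 360.4 CPM in WT and 144 and 162 CPM in KO, and at 13 dpp 632 and 709 CPM in WT and 90.6 and 36.5 CPM in KO. At 21 dpp it was 4299 and 1790 CPM in WT and 33.2 and 45.1 CPM in KO. In whole tissue, more cells of a type and more RNA per cell cannot be told apart, and a CPM value of one gene also falls when other genes rise, so the part of germ cell RNA in the members' levels was not tested.

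The clearest difference between genotypes in a contrast the selection did not use was at 21 dpp. All 198 members were tested there, and 166 were higher in KO and 1 was lower by edgeR's quasi-likelihood test at an adjusted p below 0.01. Over all 14834 genes tested, 38.0% were called, 17.1% higher and 20.9% lower, against 83.8% and 0.505% of members. The members' median log2 fold change was 1.55 (quartiles 1.26 and 1.96), or 2.94-fold, beside 0.04 over all genes tested. Of the members, 195 had a positive log2 fold change and 167 were at 1 or more. The other genes that reached the 20 CPM minimum in adult KO were called higher in 26.0% of 5297 cases with a median log2 fold change of 0.27. In 174 members both KO libraries lay above both WT libraries and in 2 both lay below, beside 26.3% and 32.6% of the 13786 genes of at least 1 CPM.

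This count depended on how libraries were scaled. With library totals in place of the trimmed mean of M-values (TMM), 27 members were called higher and 1 lower, beside 1.16% and 13.4% of all genes, the median log2 fold change was 1.37, and the median over all genes moved to -0.17. The TMM factors of the WT libraries were 1.39 and 0.836 and those of the KO libraries 0.773 and 1.11. The median of the members above that of all genes was 1.51 with TMM and 1.53 with library totals. Over all comparisons, 63 of the named members' calls were kept with library totals, 42 were lost and 1 changed sign. The calls of named members below therefore hold for TMM scaling.

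**Figure D2:**
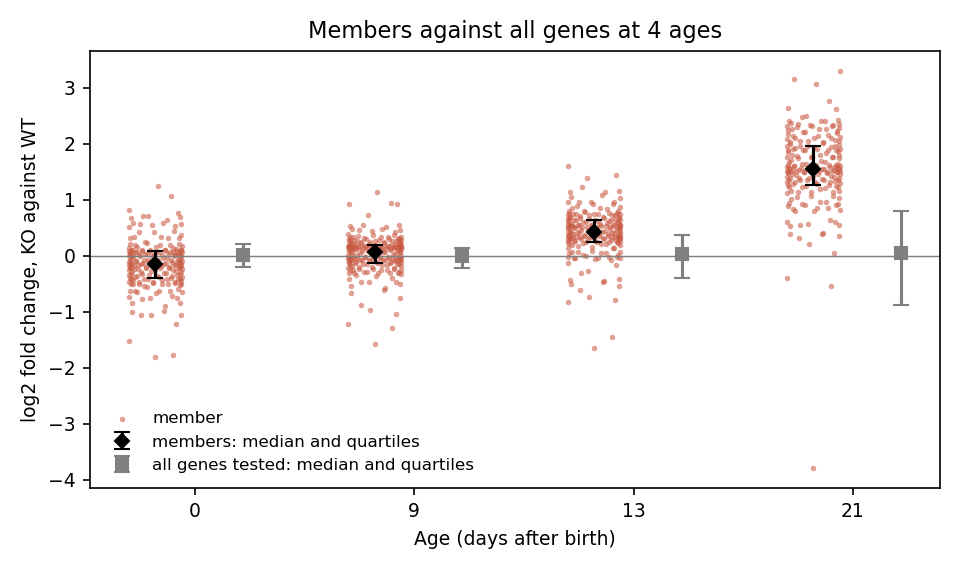
log2 fold change of KO against WT at 0, 9, 13 and 21 dpp for each member tested (red points), with the members' median and quartiles (black) and those of all genes tested (grey). The members' median moves from -0.14 at 0 dpp to 0.07, 0.43 and 1.55 at 9, 13 and 21 dpp, while that of all genes stays between -0.01 and 0.04.

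Named members were grouped by their known roles, and the grouping was made with their values known. At 21 dpp 26 of the 30 named members and 83.8% of all members were higher in KO, so the counts by role set no role apart. All 5 members of lipid metabolism were higher in KO at 21 dpp. Lpl (ENSMAUG00000017512), the lipoprotein lipase that frees fatty acids from circulating triglyceride, was at 12.1 and 10.2 CPM in WT and 78.9 and 83.6 CPM in KO. The WT and KO libraries were well apart (log2 fold change 3.06, SE 0.25, adjusted p = 7.08e-05), and this was the largest rise among the 30 named members. Fabp3 (ENSMAUG00000003807), a cytoplasmic carrier of fatty acids, was at 56.7 and 41.9 CPM in WT and 174 and 162 CPM in KO (2.02, SE 0.26, adjusted p = 0.000544). Fads6 (ENSMAUG00000018235), of the fatty acid desaturase family, was at 15.6 and 8.91 CPM in WT and 38.5 and 49.5 CPM in KO (2.11, SE 0.18, adjusted p = 9.58e-05). In both genes the lowest KO library was above the highest WT library. Fads2 (ENSMAUG00000012801), the desaturase that starts the synthesis of long polyunsaturated fatty acids, was at 298 and 163 CPM in WT and 432 and 675 CPM in KO (1.51, SE 0.23, adjusted p = 0.00115). Cers2 (ENSMAUG00000015178), which makes ceramides with very long acyl chains, was at 21.4 and 14.8 CPM in WT and 39.2 and 51.0 CPM in KO (1.54, SE 0.18, adjusted p = 0.000374). Without replicate 2 of KO, Fads2 lost its call (adjusted p = 0.0162), and the other 4 kept theirs whichever library was left out.

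All 5 members that oxidise aldehydes or handle sulfate were higher in KO as well. Sult1a1 (ENSMAUG00000011339), which attaches sulfate to phenols, was at 13.0 and 11.9 CPM in WT and 51.3 and 60.3 CPM in KO (2.33, SE 0.24, adjusted p = 0.000213). Slc26a2 (ENSMAUG00000013332), a sulfate transporter of the cell membrane, was at 24.6 and 17.6 CPM in WT and 56.6 and 95.0 CPM in KO (2.03, SE 0.19, adjusted p = 0.000134). Neither overlapped between the genotypes. Aldh1a7 (ENSMAUG00000009683), an aldehyde dehydrogenase of the same subfamily as the retinaldehyde dehydrogenases, was at 30.2 and 21.3 CPM in WT and 60.7 and 91.1 CPM in KO (1.76, SE 0.18, adjusted p = 0.000187). Aldh2 (ENSMAUG00000009022), the mitochondrial enzyme that clears acetaldehyde, was at 443 and 309 CPM in WT and 832 and 1181 CPM in KO (1.63, SE 0.26, adjusted p = 0.00148). Reads of these related enzymes may be shared, since counting split reads that aligned to several places. Aldh1a3 (ENSMAUG00000001172), which makes retinoic acid from retinaldehyde, was nearest between genotypes at 67.0 and 51.8 CPM in WT and 72.3 and 112 CPM in KO (0.81, SE 0.19, adjusted p = 0.00808). It lost its call without replicate 1 of WT or without either KO library (adjusted p from 0.0278 to 0.0622), and Aldh2 did so without either KO library (0.0107 and 0.0205).

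Of 8 members of the extracellular matrix and its proteolysis, 6 were higher in KO. Egflam (ENSMAUG00000015382), which encodes the matrix protein pikachurin, was at 14.8 and 7.84 CPM in WT and 22.4 and 41.9 CPM in KO (1.74, SE 0.21, adjusted p = 0.000441). Serpini1 (ENSMAUG00000015215), the protease inhibitor neuroserpin, was at 16.03 and 17.2 CPM in WT and 39.7 and 38.5 CPM in KO (1.40, SE 0.30, adjusted p = 0.00569). Plat (ENSMAUG00000015957), the tissue plasminogen activator that neuroserpin inhibits, was at 51.5 and 29.5 CPM in WT and 67.6 and 78.8 CPM in KO (1.13, SE 0.18, adjusted p = 0.00146). The inhibitor and its protease were thus both higher. Mxra7, named for matrix remodelling, was at 62.0 and 33.7 CPM in WT and 83.4 and 122 CPM in KO (1.35, SE 0.17, adjusted p = 0.000528). Timp1, an inhibitor of matrix metalloproteinases, and Lamb2, a laminin chain of basement membranes, overlapped between genotypes in CPM. With TMM scaling both were called (0.90 and 0.88, adjusted p = 0.00507 and 0.00954). Serpini1 and Plat lost their calls without replicate 1 of KO (adjusted p = 0.0204 and 0.0105), Timp1 without either KO library (0.0146 and 0.0664), and Lamb2 without replicate 1 of WT or either KO library (0.0104 to 0.0941). Col1a1 was at 117 and 258 CPM in WT and 371 and 579 CPM in KO (1.35, SE 0.51, adjusted p = 0.0541), and Cpz, carboxypeptidase Z, at 4.12 and 6.54 CPM in WT and 9.68 and 12.3 CPM in KO (1.07, SE 0.38, adjusted p = 0.0436). Neither passed the test, although their libraries did not overlap.

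Among 7 members of signalling and the cytoskeleton, 5 were higher in KO. Itpka (ENSMAUG00000004099), a kinase of inositol trisphosphate, was at 12.1 and 10.6 CPM in WT and 39.3 and 48.1 CPM in KO (2.12, SE 0.23, adjusted p = 0.000263). Abracl (ENSMAUG00000002521) was at 44.7 and 45.8 CPM in WT and 148 and 175 CPM in KO (1.99, SE 0.28, adjusted p = 0.000778). The KO values of both exceeded the WT values in every library. Svil (ENSMAUG00000001030), the actin-binding protein supervillin, was at 74.4 and 47.2 CPM in WT and 149 and 267 CPM in KO (1.97, SE 0.21, adjusted p = 0.000231). Epb41l4a, a FERM-domain protein of the band 4.1 family, was at 6.11 and 3.68 CPM in WT and 13.0 and 17.9 CPM in KO (1.90, SE 0.21, adjusted p = 0.000304). Sema3b, a secreted semaphorin, was at 48.6 and 32.7 CPM in WT and 81.9 and 127 CPM in KO (1.57, SE 0.18, adjusted p = 0.000310). These 5 kept their calls whichever library was left out.

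Kit and Chp2 were the exceptions of this role. Kit (ENSMAUG00000013726), the receptor of stem cell factor, which is known in differentiating spermatogonia and in Leydig cells, was at 57.8 and 34.6 CPM in WT and 23.1 and 37.0 CPM in KO. The genotypes overlapped and the log2 fold change was -0.39 (SE 0.17, adjusted p = 0.0754). Kit was the only named member with a negative value at 21 dpp. In adults, by contrast, it had 8.44 and 7.39 CPM in WT and 101 and 104 CPM in KO. Kitl, which encodes the ligand of this receptor in Sertoli cells and is no member, was at 74.7 and 77.3 CPM in WT and 290.4 and 444 CPM in KO at 21 dpp (2.401, SE 0.29, adjusted p = 0.000444). Chp2, an EF-hand protein that binds sodium/proton exchangers, was at 20.0 and 15.3 CPM in WT and 24.1 and 13.6 CPM in KO (0.38, SE 0.40, adjusted p = 0.436).

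The 5 remaining named members, which have other roles, were all higher in KO at 21 dpp. Tceal9 (ENSMAUG00000020393) was at 43.1 and 33.9 CPM in WT and 155 and 184 CPM in KO (2.35, SE 0.22, adjusted p = 0.000149). Bex3 (ENSMAUG00000017143), of a related family of small proteins, was at 32.7 and 28.8 CPM in WT and 105 and 134 CPM in KO (2.14, SE 0.23, adjusted p = 0.000249). The study's annotation places these 2 genes on 1 scaffold of the MesAur1.0 assembly, on the same strand, with 24396 bases between them. Smarcd3, a subunit of the SWI/SNF chromatin remodelling complex, was at 40.8 and 38.3 CPM in WT and 83.9 and 115 CPM in KO (1.49, SE 0.23, adjusted p = 0.00130). Mest, a gene expressed from the paternal allele in mouse and human, was at 60.2 and 36.1 CPM in WT and 102 and 139 CPM in KO (1.57, SE 0.17, adjusted p = 0.000297). Ttyh2, of the tweety family of membrane proteins, was at 83.2 and 53.2 CPM in WT and 96.7 and 174 CPM in KO (1.18, SE 0.19, adjusted p = 0.00162) and lost its call without replicate 2 of KO (adjusted p = 0.0190).

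**Figure D3:**
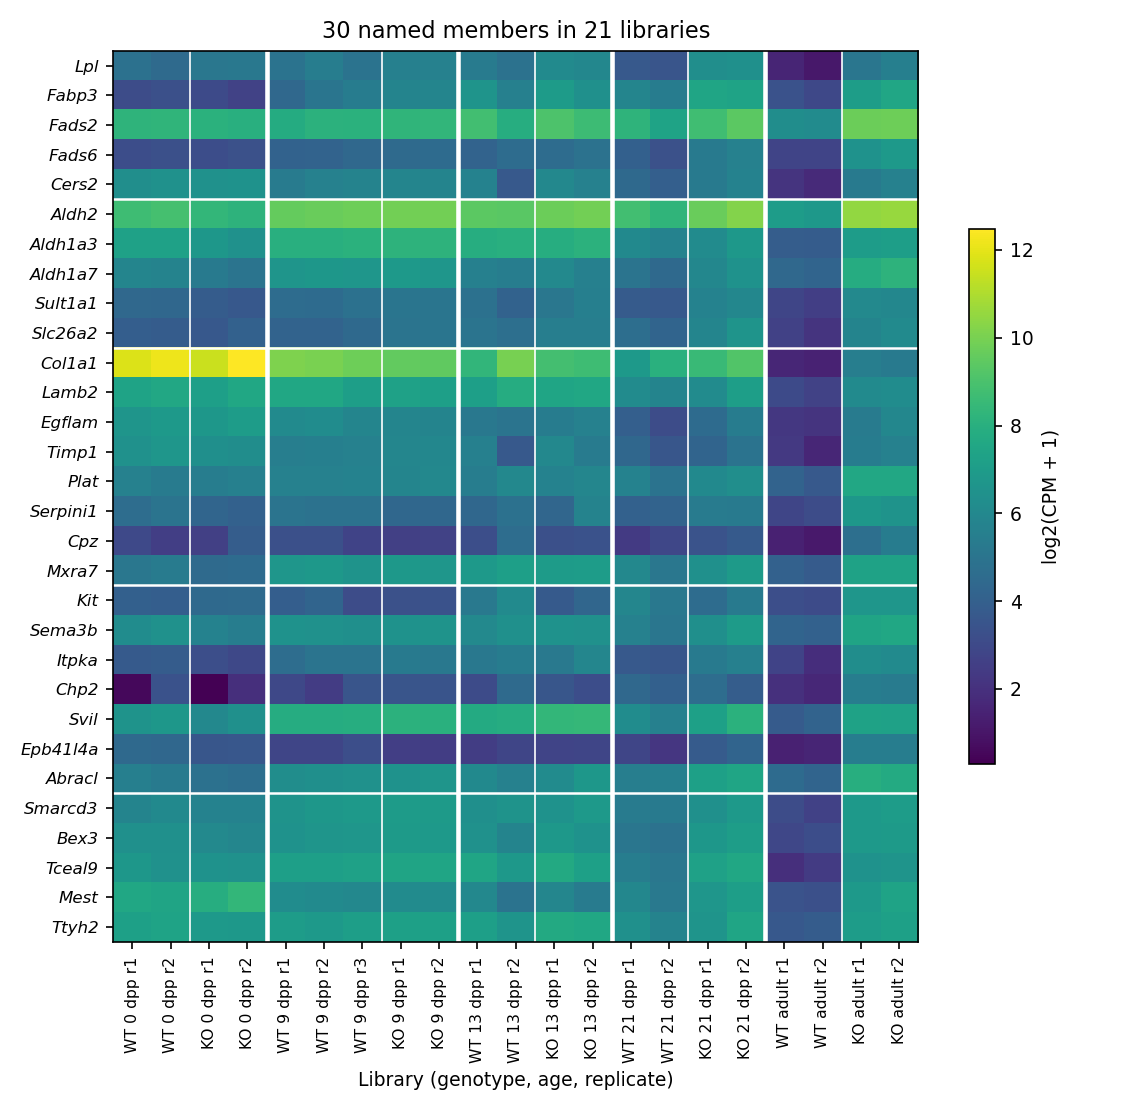
Level of the 30 named members, as log2(CPM + 1), in all 21 libraries ordered by age and, within each age, by genotype; white lines part the groups and the role groups (from the top: lipid, aldehyde and sulfate, matrix, signalling and cytoskeleton, other). The 2 adult WT columns are darker than the adult KO columns for every gene, as the choice of genes demands. The 2 WT columns of 21 dpp are darker than the KO columns beside them for 26 of the 30 genes.

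Members without a symbol showed the same main direction and the largest differences. ENSMAUG00000009590 was at 11.4 and 12.2 CPM in WT and 106 and 102 CPM in KO at 21 dpp (3.30, SE 0.32, adjusted p = 0.000163). ENSMAUG00000003309 was at 0.763 and 0.871 CPM in WT and 3.61 and 11.5 CPM in KO (3.16, SE 0.50, adjusted p = 0.00143), all far under its adult KO levels of 60.7 and 62.7 CPM. The only member called lower, ENSMAUG00000011114, rested on 5 and 14 counts in WT and on 0 and 3 counts in KO. The ratio of WT to KO over the summed libraries was 15.2, with an exact 95% interval of counting error from 4.46 to 80.0. That gene was at 24.1 and 35.8 CPM in adult KO, and at 12.2 and 13.3 CPM in WT and 10.3 and 12.1 CPM in KO at 0 dpp.

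The marker lists were set beside these results. At 21 dpp, 4 of the 5 Sertoli cell genes were called higher in KO. The summed level of the 5 was 2425 and 1421 CPM in WT and 3876 and 5713 CPM in KO. Most of that sum was Clu, at 2042 and 1112 CPM in WT and 2872 and 4155 CPM in KO. Clu was the gene of the 5 that was not called (1.41, SE 0.35, adjusted p = 0.0103). Inha, which encodes the alpha subunit of inhibin, had the second largest log2 fold change of the 5 (2.25, SE 0.26, adjusted p = 0.00034) after Kitl. Of the 4 peritubular myoid genes, none was higher and Tagln, which encodes transgelin, was lower (-1.04, SE 0.18, adjusted p = 0.00223). Neither of 2 endothelial genes was called, nor was Por, the only gene of the Leydig cell list with an identifier. Csf1r, the macrophage colony-stimulating factor receptor, was higher (1.30, SE 0.22, adjusted p = 0.00176). Among 19 germ cell genes tested, 18 were lower. Whether a change in the make-up of the tissue carried the members' difference was not tested.

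At 13 dpp the members leaned the same way, but no call was made. Of 194 members tested with edgeR, 0 were called in either direction. Of all 13254 genes tested 0.121% were called lower and 0.0% higher, so few genes passed at this age at all. Without adjustment 17 members had a p below 0.05 with edgeR, a count not made over all genes, and DESeq2 called 0. The median log2 fold change was 0.43 (quartiles 0.24 and 0.64) beside 0.02 over all genes, and 168 members, 86.6%, were positive beside 51.6% of all genes. Both KO libraries were above both WT libraries in 106 members and below in 5, beside 16.9% and 28.3% of all genes of at least 1 CPM. At this age same-numbered libraries of the genotypes share a code in their labels, and with that number as a replicate block 4 members were called higher and 1 lower, beside 0.143% and 3.46% of genes in that fit. Without replicate 1 of WT the median log2 fold change was 0.5623, the highest with 1 library left out.

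Of the 30 named members 10 had both KO libraries above both WT libraries at 13 dpp, 1 below and 19 overlapping. Lpl was at 40.7 and 28.4 CPM in WT and 67.9 and 60.8 CPM in KO, and Slc26a2 at 30.4 and 25.6 CPM in WT and 44.8 and 45.0 CPM in KO. Kit lay the other way, at 36.7 and 68.02 CPM in WT and 12.5 and 18.7 CPM in KO (-1.65, SE 0.40, adjusted p = 0.124). The shallowest library, replicate 2 of WT, was apart from its partner for several members, as for Timp1 at 48.0 and 12.1 CPM, Cers2 at 51.0 and 12.1 CPM and Col1a1 at 322 and 1012 CPM in replicates 1 and 2.

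At 9 dpp few members differed. The 2 WT libraries of the main test share 1 code in their labels and both KO libraries carry another, so genotype and code cannot be told apart in that test, and replicate 3 of WT, left out of it, is the WT library with the code of the KO animal. With the 4 libraries used by the study, 5 of 196 members were higher in KO and 4 lower, beside 0.559% and 3.19% of the 15569 genes tested (3.74% in all), and the median log2 fold change was 0.07. With all 3 WT libraries 0 of 197 members were called, beside 0.057% and 0.342% of 15776 genes, although 62 had an unadjusted p below 0.05. With the 2 KO libraries, which carry the label of 1 animal, summed to 1 and set against 3 WT libraries, 0 of 198 were called and 22 had an unadjusted p below 0.05. The numbers with an unadjusted p below 0.05 in these 2 fits were not counted over all genes and do not set the members apart. DESeq2 called 20 members higher and 6 lower from the 4 libraries, beside 2.27% and 4.63% of 15306 genes. Every KO library was above every WT library in 77 members and below in 67 with 4 libraries, beside 23.8% and 36.7% of genes, and in 63 and 36 with 5 libraries, beside 19.1% and 21.3%.

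Of the 9 members called, 8 have a name, and all 8 came from the study's list at that age. The largest difference was in Fabp3, at 20.3, 31.7 and 41.5 CPM in WT and 54.1 and 55.5 CPM in KO. All KO values were above all WT values (log2 fold change from replicates 1 and 2 of WT 1.13, SE 0.17, adjusted p = 0.00658). Slc26a2 was at 16.9, 16.95 and 21.3 CPM in WT and 30.4 and 31.5 CPM in KO (0.92, SE 0.07, adjusted p = 0.000411). With all 5 libraries neither passed the test (adjusted p = 0.119 for Fabp3 and 0.0230 for Slc26a2), nor with the KO libraries summed (0.475 and 0.179). Sult1a1, Fads6 and Timp1 were called higher with log2 fold changes of 0.51, 0.46 and 0.44. Kit, Cpz and Serpini1 were called lower, at -0.76, -0.66 and -0.55. Kit was at 14.3, 17.5 and 7.70 CPM in WT and 8.94 and 9.19 CPM in KO, so the WT library left out of the test was below both KO libraries. Without replicate 1 of KO, Fads6, Serpini1, Kit, Cpz, Sult1a1 and Timp1 lost their calls. The number of members called moved when single libraries were left out, and no share over all genes is given for those fits. In them the members' median log2 fold change ranged from 0.0359 to 0.0867.

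At 0 dpp the members leaned towards lower levels in KO. Of 196 members tested, 5 were called higher and 6 lower, beside 1.0% and 0.931% of 16333 genes (1.93% in all), and the median log2 fold change was -0.14 (quartiles -0.40 and 0.08) beside 0.02. Both KO libraries lay below both WT libraries in 104 members and above in 27, beside 29.0% and 25.2% of genes. Sema3b was at 73.7 and 87.1 CPM in WT and 51.2 and 43.2 CPM in KO (-0.72, SE 0.13, adjusted p = 0.00843). Epb41l4a was at 20.7 and 19.3 CPM in WT and 10.7 and 11.2 CPM in KO (-0.84, SE 0.14, adjusted p = 0.00612). Both were higher in KO at 21 dpp. Of the members called at 0 dpp, all 5 called higher and 4 of the 6 called lower were called higher at 21 dpp, where 83.8% of all members were. Mest leaned the other way at 0 dpp, at 185 and 168 CPM in WT and 235 and 329 CPM in KO (0.71, SE 0.15, adjusted p = 0.0155).

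The calls at 0 dpp moved with single libraries. No share over all genes is given for the fits without 1 library. The members' median in them ranged from -0.2121, without replicate 2 of KO, to -0.1041, without replicate 2 of WT. Epb41l4a lost its call without either WT library (adjusted p = 0.0117 and 0.0169), and Sema3b without replicate 2 of either genotype (0.0102 and 0.0481). The summed level of the 5 Sertoli cell genes at this age was 2674 and 3121 CPM in WT and 1961 and 1627 CPM in KO. Most of it was Clu, at 2129 and 2527 CPM in WT and 1578 and 1270 CPM in KO. Of the 5 genes, 3 were called lower. Por was called higher. Por and the Sertoli cell genes have symbols only through the study's lists of changed genes, so their calls at 0 dpp are not independent evidence. At 0 dpp the genotype and the label code cannot be told apart.

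**Figure D4:**
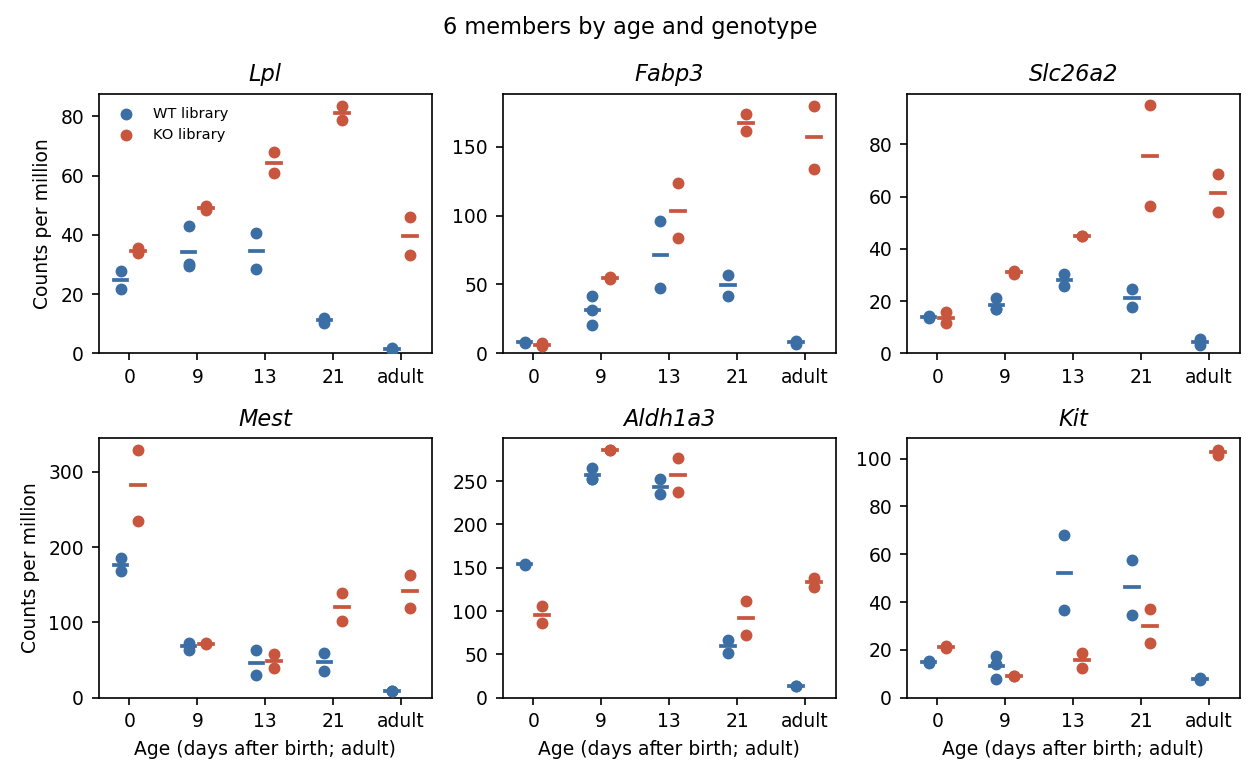
CPM of 6 named members, chosen after their values were seen to show different courses, in each library by age (linear axes from 0; WT blue, KO red, bars for group means). The KO points of Lpl and Slc26a2 lie above the WT points at 9, 13 and 21 dpp, Fabp3 does so at 9 and 21 dpp and overlaps at 13 dpp, Mest and Aldh1a3 overlap at 13 dpp, and Kit has both KO points below both WT points at 13 dpp and overlaps at 21 dpp.

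Between 0 and 9 dpp more members rose than fell in each genotype with TMM scaling. In WT 103 of 197 members were higher at 9 dpp and 27 lower, beside 28.1% and 24.8% of 16808 genes (52.9% in all), with a median log2 fold change of 0.47. In KO 120 were higher and 32 lower, beside 30.9% and 30.7% of genes (61.6% in all), with a median of 0.71. The KO libraries of 9 dpp carry the label of 1 animal, so KO p-values for this step do not cover the spread between animals at that age. With these libraries summed to 1, an alternative chosen after seeing the data, 111 members were higher and 25 lower, beside 26.9% and 22.7% of genes. These directions are relative to the bulk of genes: with library totals the median of all genes was -0.50 in WT and -0.60 in KO. The calls became 51 higher and 54 lower in WT and 75 higher and 58 lower in KO. No share over all genes is given for library totals, so these counts do not set the members apart. The members' median stood 0.46 above that of all genes in WT and 0.77 above it in KO with TMM, and by 0.46 and 0.77 with library totals. The 2 contrasts rest on separate libraries, and 94 members rose in both, 23 fell in both and 1 went opposite ways. This overlap was not counted over all genes, most of which were called in each genotype.

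Fabp3 rose most among the named members with a call in WT, from 7.66 and 8.54 CPM at 0 dpp to 20.3 and 31.7 CPM in the 2 WT libraries tested at 9 dpp (2.197, SE 0.20, adjusted p = 2.82e-06). In KO it went from 7.11 and 5.61 CPM to 54.1 and 55.5 CPM (3.65, SE 0.20, adjusted p = 4.34e-08). Mxra7 went from 33.5 and 39.6 CPM to 103 and 109 CPM in WT (2.05, SE 0.10, adjusted p = 5.04e-08). All 5 members of the aldehyde and sulfate group rose in both genotypes. Col1a1 fell from 3685 and 4534 CPM to 1099.9 and 1055 CPM in WT (-1.42, SE 0.23, adjusted p = 0.00025) and from 2914 and 5702 CPM to 761 and 737 CPM in KO (-1.97, SE 0.24, adjusted p = 1.59e-05). Mest and Epb41l4a fell in both genotypes too, and Epb41l4a lost its call in KO with the KO libraries of 9 dpp summed. Of the 94 members that rose in both genotypes, 88 (93.6%) were called higher in KO at 21 dpp, and of the 23 that fell in both, 16 (69.6%) were. Of all members 83.8% were called higher there, and of all genes tested 17.1%.

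The change from 0 to 9 dpp itself differed between genotypes in 25 of 197 members, 20 with a more positive change in KO and 5 with a more negative one, beside 1.24% and 3.1% of genes (4.34% in all). Of the 12 named members called, Kit was among the 5 and the others were among the 20. Kit rose in WT (0.59, SE 0.12, adjusted p = 0.000995) and fell in KO (-0.68, SE 0.12, adjusted p = 0.000254), a difference of -1.28 (SE 0.17, adjusted p = 0.00111). The WT rise of Kit rests on replicates 1 and 2 of 9 dpp, at 14.3 and 17.5 CPM, while replicate 3 was at 7.70 CPM. With all 3 it was 0.34 (adjusted p = 0.239) and the difference -1.02 (adjusted p = 0.106), and the rise lost its call without replicate 2 (adjusted p = 0.0111) and with library totals (0.09, adjusted p = 0.525). Sult1a1 rose in both, by 0.71 in WT and by 1.89 in KO. Each interaction uses the KO libraries of 1 animal label at 9 dpp and of another code at 0 dpp, and with all 3 WT libraries of 9 dpp 6 members were called more positive and 1 more negative, beside 0.426% and 1.03% of genes. With the KO libraries of 9 dpp summed, 2 and 1 were called, beside 0.28% and 1.21% of genes, and these were Abracl, Sult1a1 and Kit. The number of members called also moved from fit to fit when 1 library was left out, and no share over all genes is given for those fits.

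Between 13 and 21 dpp the genotypes parted. In WT 26 of 198 members fell and 8 rose, beside 2.98% and 5.59% of 14941 genes (8.57% in all), with a median log2 fold change of -0.54. In KO 30 rose and 1 fell, beside 1.43% and 1.59% of genes (3.02% in all), with a median of 0.60. The log2 fold change was larger in KO than in WT in 195 of the 198. It was below 0 in WT and above 0 in KO in 81 members, above 0 in both in 59 and below 0 in both in 57, and no member was called lower in WT and higher in KO. The difference itself passed the test in 1 member, beside 0.0335% of genes in that direction, 2.07% in the other and 2.1% in all. The median difference was 1.11 beside 0.07 over all genes. In 122 members the unadjusted p was below 0.05, a count not made over all genes.

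**Figure D5:**
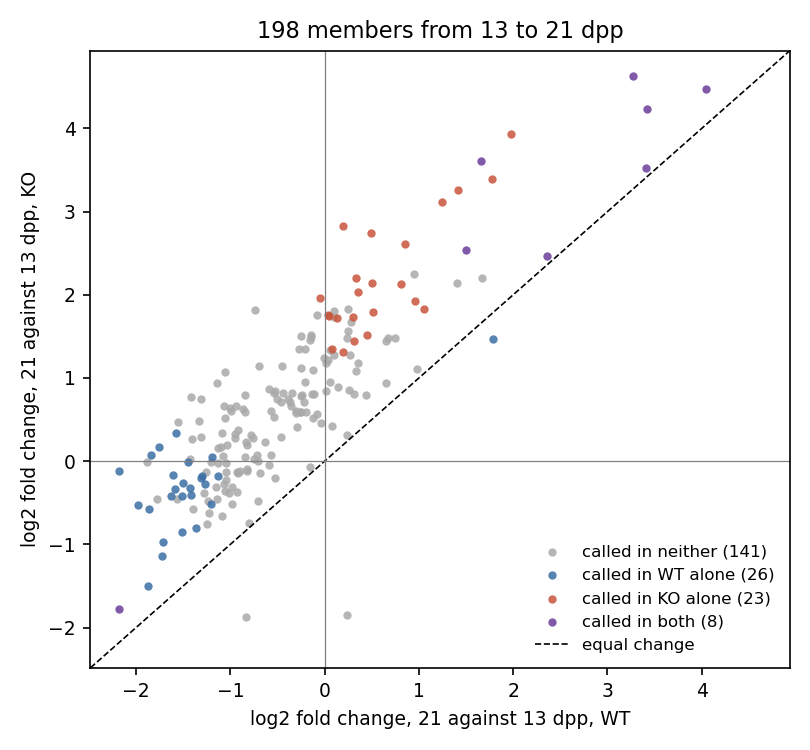
log2 fold change from 13 to 21 dpp of each of the 198 members in WT (horizontal) and KO (vertical), coloured by the genotype in which the change was called; the dashed line marks equal change. All but 3 points lie above the line, 26 members were called in WT alone, 23 in KO alone, 8 in both and 141 in neither.

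The named members called lower in WT from 13 to 21 dpp were 5. Aldh1a3 fell from 235 and 252 CPM to 67.0 and 51.8 CPM (-1.73, SE 0.25, adjusted p = 0.00167), and Svil from 214 and 226 CPM to 74.4 and 47.2 CPM (-1.58, SE 0.24, adjusted p = 0.00219). Tceal9 fell from 174 and 109.9 CPM to 43.1 and 33.9 CPM (-1.57, SE 0.30, adjusted p = 0.00608). Egflam and Mxra7 fell by 1.30 and 1.19 on the log2 scale. In KO, Aldh1a3 went from 237 and 277 CPM to 72.3 and 112 CPM (-1.13, SE 0.25, adjusted p = 0.0196), which did not pass the test. The mean KO levels of the others were also lower in CPM at 21 than at 13 dpp. They went from 330.9 to 207.8 CPM for Svil and from 45.5 to 32.2 CPM for Egflam. Mxra7 went from 126.8 to 102.6 CPM and Tceal9 from 176.0 to 169.7 CPM. These means take no TMM scaling, and none of these genes was called in KO. In KO Epb41l4a rose from 5.88 and 6.14 CPM to 13.0 and 17.9 CPM (1.72, SE 0.26, adjusted p = 0.00385), the only named member called there.

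These age calls rest on few libraries. Without replicate 1 of WT at 21 dpp all 5 named falls lost their calls. With 1 library left out, the members' median log2 fold change ranged from -0.8096 to -0.2832 in WT and from 0.5404 to 0.6666 in KO. The counts of members called moved as well, and no share over all genes is given for those fits. Epb41l4a lost its call without any of the 4 KO libraries (adjusted p from 0.0271 to 0.0612).

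Over all ages, WT levels were highest at 0 dpp in 79 members, at 9 dpp in 50, at 13 dpp in 45, at 21 dpp in 19 and in adults in 5. The rule asks for adult WT levels well below those of adult KO, and 166 members had their lowest WT mean in adults. The number of adult WT peaks was thus kept low by the choice. The counts at the other ages are raised by it. In KO 115 were highest in adults, which the choice of members favours, and 39 at 0 dpp. Of 10460 genes, 42.5% were highest at 0 dpp in WT, 9.56% at 9 dpp and 28.8% in adults, and in KO 54.3% were highest at 0 dpp and 18.5% in adults. These ages differ in read layout and are given without a test.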

How the data were processed

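The files used here are expected counts, estimated by the authors per gene and deposited without normalization. Per the labels and the study's methods, reads were aligned with STAR 2.7.3a to MesAur1.0, allowing up to 20 alignments, and counted with featureCounts 2.0.0 over exons of Ensembl release 99, by strand, with reads of several alignments or genes split into fractions. Counts of related genes are therefore uncertain.

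Counts were rounded and tested with edgeR 4.0.16 (quasi-likelihood, TMM, filterByExpr) in R 4.3.3, with Benjamini-Hochberg adjustment over all genes tested and calls at an adjusted p below 0.01. Genotypes were compared within each age from the libraries of that age alone. Ages and the interaction used joint fits of 8 libraries, 0 with 9 dpp and 13 with 21 dpp. At 9 dpp the main test used replicates 1 and 2 of WT, as in the study. These share a label code that differs from that of the KO libraries, which carry the label of 1 animal. Alternatives were relative log expression (RLE) scaling, library totals, no filter, DESeq2 1.42.0, a replicate block, leaving out each library, joint fits, all 5 libraries at 9 dpp, summed KO libraries at 9 dpp (for the steps from 0 to 9 dpp chosen after seeing the data), and member lists from the 100 highest scores or from 3 adult libraries. Of the 198 members, 135 stayed in the list made without adult WT library 1 and 178 without adult WT library 2. The numbers were 153 without adult KO library 1 and 177 without adult KO library 2. Scripts were tested on simulated counts.

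The members and the lists were chosen with earlier results of these data known. Named genes were the 30 members with the highest scores among those that the study's supplementary lists pair with a symbol. Markers were named from the same lists, except Tex101, which the counts carry by its symbol. No other gene symbols and no sequences were used here. The members without a symbol that are named are the 2 called higher with the largest log2 fold changes at 21 dpp and the 1 called lower, besides the gene at the limit of the score. Intervals cover counting error only. Same-numbered libraries share a label code only at 13 dpp, where the correlation of their deviations from the group means was 0.129, over 12962 genes. The 2 genes left out of the members are not reported here.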

Additional observations from a re-analysis of the deposited data

Results flagged for a closer look

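The change from 0 to 9 dpp differed between genotypes, by a test of the interaction in edgeR, in 25 members. Among the named ones the difference of KO from WT in log2 fold change was 1.45 for Fabp3, 1.24 for Itpka, 1.18 for Sult1a1, 0.98 for Abracl, 0.94 for Slc26a2 and 0.90 for Aldh1a3. It was 0.81 for Bex3, Aldh1a7 and Sema3b, 0.75 for Mxra7 and Ttyh2, and -1.28 for Kit. Of these 12, Abracl, Sult1a1 and Kit kept their calls with the 2 KO libraries of 9 dpp, which carry the label of 1 animal, summed to 1, and all 12 are on the study's own lists of changed genes at 0 or 9 dpp. With all 3 WT libraries of 9 dpp in the edgeR test, Kit lost its call (-1.02, adjusted p = 0.106). Abracl, Sult1a1, Bex3, Itpka and Mxra7 kept theirs in that fit (adjusted p from 0.0077 to 0.00973). Between 13 and 21 dpp the difference passed the test in 1 member.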

How the results depend on the processing

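Of the counts and medians recomputed under alternatives, those that left out a library included, 165 stayed within 1.5 times the count or within the spread and 89 moved. Of the values of named members with a call, 1111 stayed on their side of the threshold, 232 lost the call in the same direction, and 1 changed sign: Lamb2 from 0 to 9 dpp in KO, at 0.40 with TMM and -0.1468 with library totals. The causes were not tested.

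Calls over all genes also moved between fits. At 9 dpp DESeq2 called 2.27% of genes higher and 4.63% lower, against 0.559% and 3.19% in the main fit. The counts from here on, those without 1 library included, are given without such shares. They do not separate the members from genes in general. Members called between genotypes numbered 24 with DESeq2, 23 in the joint fit and 38 with no filter at 0 dpp. At 9 dpp they numbered 26 with DESeq2, 3 in the joint fit, 33 with no filter, 0 with all 5 libraries and 0 with the KO libraries summed. At 13 dpp no filter gave 3, and at 21 dpp library totals gave 28. From 13 to 21 dpp DESeq2 called 70 in WT and 59 in KO, no filter 84 and 68, and library totals 18 in KO. The interaction of 0 and 9 dpp gave 50 with DESeq2, 45 with no filter, 7 with all 5 libraries and 3 with the KO libraries of 9 dpp summed, and that of 13 and 21 dpp gave 34 with DESeq2, 54 with no filter, and 0 with RLE and 0 with library totals.

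The median log2 fold change at 9 dpp was 0.0181 with library totals, 0.0033 and 0.0147 for members chosen without adult KO library 1 or adult WT library 1, and -0.0021 for the 100 highest scores. From 0 to 9 dpp in WT it was 0.4203 with DESeq2, 0.4311 with RLE, 0.4170 with all 5 libraries, -0.0362 with library totals, 0.4155 and 0.5899 for those member lists, and 0.6736 for the 100 highest scores. In KO it was 0.1704 with library totals, 0.7653 with the KO libraries of 9 dpp summed (chosen after seeing the data), 0.6595 without adult WT library 1 and 0.8091 for the 100 highest scores. From 13 to 21 dpp library totals gave -0.8308 in WT and 0.2403 in KO.

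Leaving out 1 library at a time, members called ranged from 3 to 37 at 0 dpp, 3 to 45 at 9 dpp, 0 to 3 at 13 dpp and 127 to 171 at 21 dpp. They ranged from 105 to 136 in WT and 133 to 152 in KO from 0 to 9 dpp, and from 2 to 53 in WT and 1 to 54 in KO from 13 to 21 dpp. The interactions ranged from 2 to 39 and from 0 to 7. The medians ranged from -0.2121 to -0.1041 at 0 dpp, 0.0359 to 0.0867 at 9 dpp, 0.3642 to 0.5623 at 13 dpp and 1.4192 to 1.7513 at 21 dpp. They ranged from 0.4652 to 0.5114 in WT and 0.6487 to 0.7765 in KO from 0 to 9 dpp, and from -0.8096 to -0.2832 and 0.5404 to 0.6666 from 13 to 21 dpp. Where this left 1 library in a group, that library was assumed to vary like the others.

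With the replicate number as a block, 45 members were called at 0 dpp, 5 at 13 dpp and 171 at 21 dpp. The correlation of same-numbered libraries was 0.058 at 0 dpp, -0.179 at 9 dpp and -0.148 at 21 dpp, where the numbers mark no shared code, so the pairing was used only at 13 dpp. A block by label code could not be fitted at 21 dpp. Depth was lowest in WT at 13 dpp, with 3550217 counts.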
